A study of Mus musculus with 586 samples.

Results

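Ttr, Afp, Rbp4, Trf and Spink3 encode proteins that the visceral endoderm secretes, and these 5 genes, chosen by name, were followed among the 23361 genes listed for every embryo. The libraries are of Geo-seq type, in which a small group of cells is cut by laser from a known place in a cryosection of 1 embryo and its RNA is sequenced. All are C57BL/6 mouse embryos, and the labels name no mutant allele and no treatment. The groups share strain and differ in stage and position. Embryos also differ in sequencing depth and in the regions captured. The groups used are the embryos of 5 stages, 473 libraries of 18 embryos in all: E5.5 has 22 libraries of 2 embryos, E6.0 has 22 of 2, E6.5 has 109 of 6, E7.0 has 101 of 2 and E7.5 has 219 of 6. The meaning of the region codes was taken from the published atlas. Mesoderm is M in the E7.0 embryos, while in those of E7.5 it is divided into MA (anterior) and MP (posterior), endoderm is EP (posterior) and EA (anterior), and epiblast is P (posterior) and A (anterior). L and R are the left and right epiblast, VE is visceral endoderm of 1 E6.0 embryo, and A/P or EA/EP is the undivided distal tip, section 1. Endoderm was captured apart from epiblast, as EP and EA, in 6 embryos, which are embryos 5 and 6 of E6.5, embryos 1 and 2 of E7.0 and embryos 5 and 6 of E7.5.

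The visceral endoderm is the epithelium that wraps the epiblast and the extraembryonic ectoderm before the placenta and the liver work. It takes up maternal proteins, handles lipids and secretes a set of serum proteins that the fetal liver will make later. Ttr (transthyretin) carries thyroid hormone and holds the retinol carrier Rbp4 in a complex, Trf (transferrin) carries iron, Afp (alpha-fetoprotein) is the main albumin-family protein of fetal serum, and Spink3 is a Kazal-type inhibitor of trypsin. During gastrulation, definitive endoderm cells from the primitive streak enter the distal part of this layer, while the proximal part becomes the visceral yolk sac endoderm.

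Promoter letters were at hand for Afp and Rbp4. They are shown because both genes are also made by liver, and liver-type factors of the HNF1 and FOXA families act in both tissues. Each line gives the 250 bases before the RefSeq transcription start on GRCm38.p6, read 5′ to 3′, with capitals for matches on either strand to the HNF1 motif (GTTAATTATT with any base at position 7) or the FOXA motif (TGTTTNC). The Afp window is chr5:90490464-90490713 on the plus strand, and the Rbp4 window is chr19:38125322-38125571 on the minus strand.
Afp: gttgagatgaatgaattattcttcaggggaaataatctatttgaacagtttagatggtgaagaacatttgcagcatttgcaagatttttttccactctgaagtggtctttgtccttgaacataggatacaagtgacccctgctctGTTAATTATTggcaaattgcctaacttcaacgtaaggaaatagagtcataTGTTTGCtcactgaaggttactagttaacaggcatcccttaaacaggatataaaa
Rbp4: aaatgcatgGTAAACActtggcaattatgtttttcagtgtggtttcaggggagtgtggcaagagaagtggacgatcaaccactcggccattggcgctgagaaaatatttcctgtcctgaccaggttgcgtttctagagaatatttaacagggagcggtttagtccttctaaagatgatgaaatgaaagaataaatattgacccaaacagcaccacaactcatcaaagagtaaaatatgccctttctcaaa
The Afp window held 1 HNF1 match, GTTAATTATT at -105 to -96 from the start site, and 1 FOXA match, TGTTTGC at -55 to -49. The Rbp4 window held 1 FOXA match, GTAAACA at -241 to -235, which is the motif on the other strand, and a second Rbp4 start listed in RefSeq held neither. Of 32851 promoter windows of the same length, 0.371% held the HNF1 motif and 17.8% the FOXA motif. The HNF4 motif CAAAGTNCA and, for the GATA family of factors, AGATAA, found in 1.19% and 9.99% of all windows, were in neither printed window. The matches printed do not overlap each other, and a match describes the letters only.

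FPKM sums per library ran from 53064 to 1806706 (median 416861), and 2683 to 11319 genes reached 1 FPKM. Depth was estimated from the smallest steps of FPKM in single-transcript genes, and the median library of an embryo held about 2.09 to 10.6 times 1000000 reads. The 7 embryos at 7.24 times 1000000 reads or more were the first 4 of E6.5 and the first 3 of E7.5, none of which has EP or EA libraries, so depth and the capture of endoderm cannot be told apart between embryos. In the median library 1 read was worth about 0.283 FPKM of Ttr, 0.163 of Afp, 0.289 of Rbp4, 0.13 of Trf and 0.46 of Spink3. Markers were summed to check the labels, and at E6.5 the visceral endoderm sums overlapped. They ran from 580 to 13031 FPKM in EP and 343 to 13878 in EA, against 74.2 to 876 in P and 122 to 964 in A. At E7.0 maternal blood and decidua markers had medians of 7390 FPKM in EP and 3915 in EA, against 57.3 in P and 194 in A. The summed level of 30 other visceral endoderm markers at E7.0 had medians of 3573 FPKM in EP and 2591 in EA, against 417 in P and 449 in A. The sum of 10 epiblast markers there had medians of 100 FPKM in EP and 175 in EA, against 534 in P and 779 in A. The P library of section 5 of E6.0 embryo 1 stood apart, with an epiblast marker sum of 6.61 FPKM where the 230 other epiblast libraries had at least 72.5. Its parietal endoderm markers summed to 1229 FPKM, against at most 559 in the others. In 4 libraries 1 small RNA gene held over 50% of the FPKM sum.

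All 5 genes were higher in endoderm than in epiblast of the same embryo and section. Spink3 led all 10332 genes tested, Ttr stood at rank 4, Afp at 10, Rbp4 at 12 and Trf at 69 by log2 difference. Sections with all 4 regions numbered 7 in each E6.5 embryo and 3 in each E7.0 and E7.5 embryo. Mean log2(FPKM + 1) of Spink3 over them was 11.68 and 12.82 in endoderm of the E6.5 embryos, 12.45 and 12.98 at E7.0, then 12.58 and 13.69 at E7.5. In epiblast of the same embryos it was 4.05 and 6.63, then 2.95 and 3.88, then 3.21 and 4.25. The lowest endoderm value lay above the highest epiblast value by more than the whole range of either. The mean log2 difference was 8.54 ± 0.46 (SE, n = 6 embryos, limma adjusted p = 1.54e-14).

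Ttr averaged log2 6.64 and 7.98 in endoderm at E6.5, 6.91 and 7.37 at E7.0, then 6.35 and 7.87 at E7.5. Its epiblast means were 0.83 and 1.69, 0.54 and 0.99, and 0.37 and 1.35. The groups did not overlap, and the difference of 6.22 ± 0.37 (SE, limma adjusted p = 7.27e-14) was higher in 6 of 6 embryos. The differences of Afp (5.09 ± 0.35, adjusted p = 1.49e-12), Rbp4 (4.78 ± 0.34, adjusted p = 1.82e-12) and Trf (2.77 ± 0.27, adjusted p = 7.65e-10) were likewise higher in 6 of 6 embryos by limma. Of all genes tested 10.9% were called higher in endoderm, and the median difference over all genes was -0.47. Within single stages, each with 2 embryos and a spread shared between stages, all 5 genes were called higher at E6.5, E7.0 and E7.5, where 3.47%, 8.61% and 9.13% of all genes were.

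**Figure D1:**
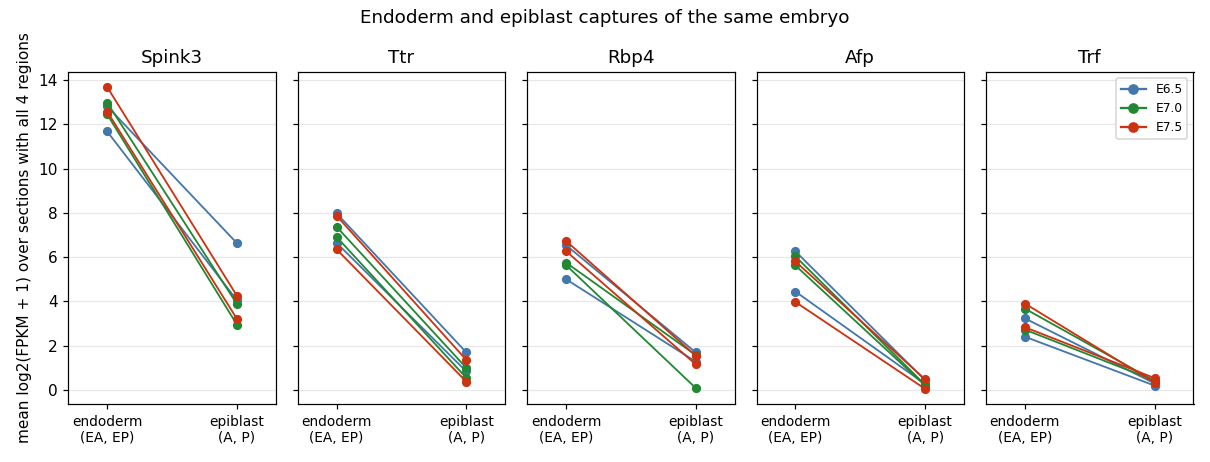
Mean log2(FPKM + 1) of each gene in endoderm (EA and EP, left) and epiblast (A and P, right) captures, 1 line per embryo, coloured by stage. All 6 lines fall from endoderm to epiblast in each of the 5 panels, most steeply for Spink3 (mean difference 8.54) and least for Trf (2.77).

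The size of the difference at E7.5 set against E6.5 did not pass the test for any of the 5. Of all genes 38.4% were called in either direction, 38.1% higher and 0.329% lower. The median change over all genes was 0.78. Spink3 came nearest to a call, with a change of 2.50 ± 1.14 (SE, limma adjusted p = 0.0779). Rbp4 (0.86) lay near the median of all genes, and Ttr (0.19), Trf (0.36) and Afp (-0.38) lay below it. With a pseudocount of 0.1 or a filter at 5 FPKM 1 of the 5 was called. In Spink3 the epiblast side was 4.05 and 6.63 at E6.5 and 3.21 and 4.25 at E7.5, and endoderm was 11.68 and 12.82 and then 12.58 and 13.69. Each embryo entered with 7 sections at E6.5 and 3 at E7.5, and the part of section coverage in the change was not tested.

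Spink3 has the current symbol Spink1 and lies at chr18:43728082-43737557 (minus strand, 4 exons, GRCm38, GENCODE vM21). In 104 of 104 EP and EA libraries it had the highest FPKM of the 5, a scale that already divides by transcript length. It held a median rank of 2 among all genes of a library, from rank 1 to rank 19. Ttr (chr18:20665280-20674321, plus strand, 4 exons) was the next in 84 of these libraries, Rbp4 (chr19:38116629-38125281, minus strand, 6 exons) came 3rd in 67, Afp (chr5:90490737-90508907, plus strand, 15 exons) came 4th in 71 and Trf (chr9:103204001-103230444, minus strand, 17 exons) came last in 90. Together the 5 genes made up a median of 2.2% of a library's FPKM sum, and up to 11.5%.

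At E7.0 mean FPKM over the 2 embryos was 7452 ± 2976 (SD) in EP and 12833 ± 1191 in EA for Spink3, and 481 ± 123 and 885 ± 42.8 for Ttr. Rbp4 had 365 ± 82.4 FPKM in EP and 377 ± 240 in EA, Afp 115 ± 33.7 and 59.5 ± 0.179, and Trf 21.4 ± 6.43 and 15.3 ± 3. Neighbours in this order did not all differ beyond their spread, and in EP Ttr exceeded Rbp4 by less than the SD of Ttr. At E7.5 Rbp4 reached 820 ± 214 FPKM in EP, and Ttr there 730 ± 524.

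**Figure D2:**
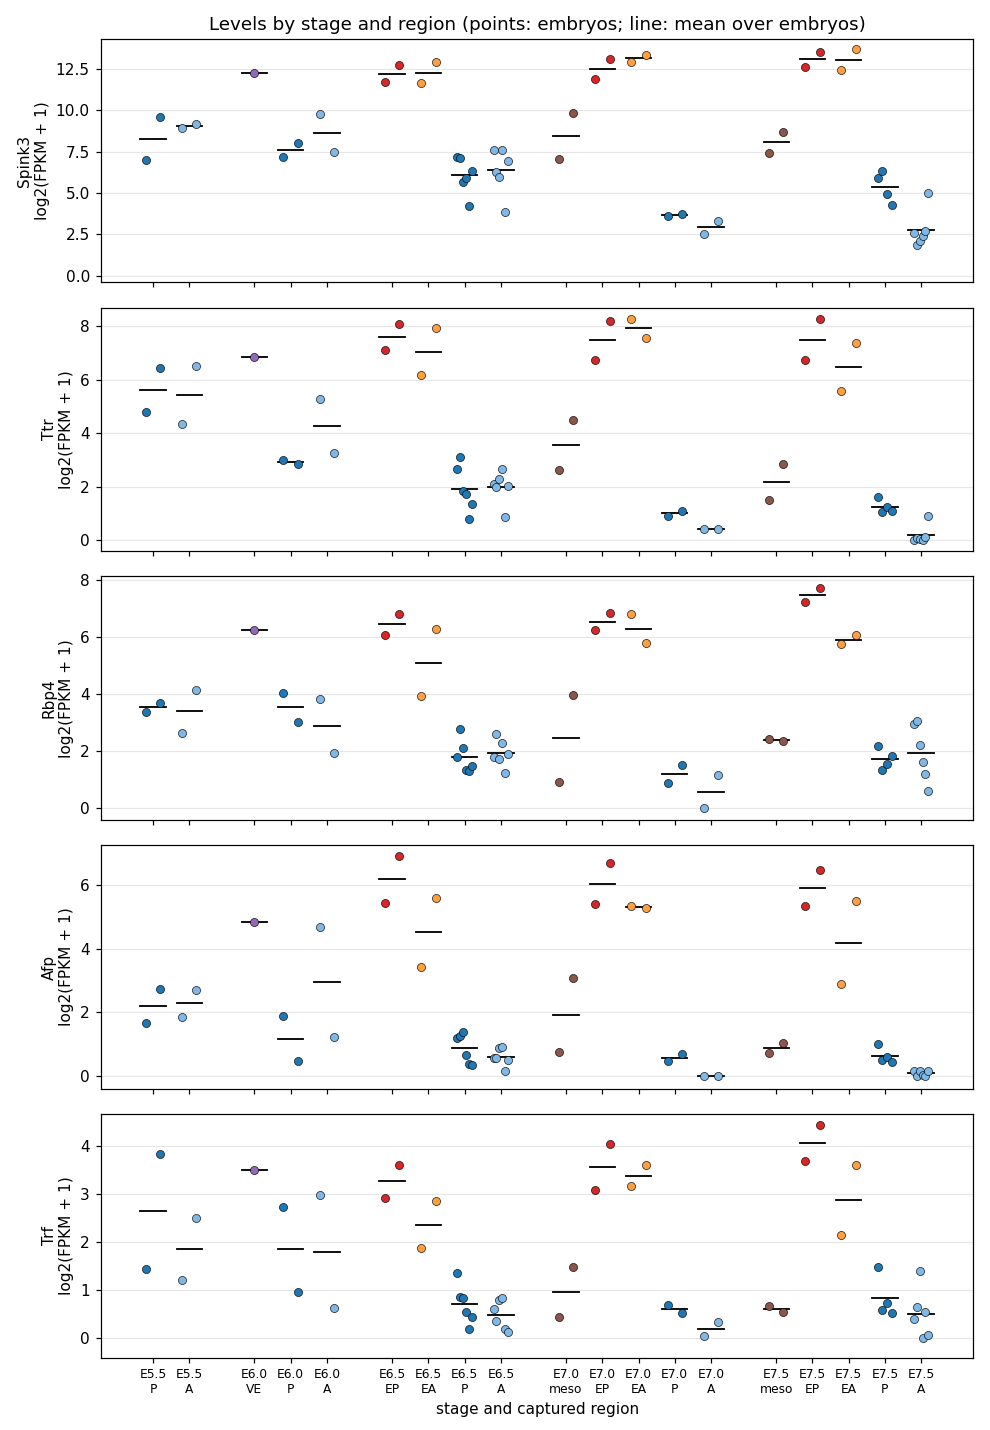
Mean log2(FPKM + 1) per embryo (points) and over embryos (line) by stage and captured region for the 5 genes. Endoderm (EP, EA and VE) stands highest at each stage that has it, and Spink3 and Ttr in M, MA and MP lie between endoderm and the P and A captures. The M1, M2, E1 and E2 captures of E7.5 embryo 4 are not drawn.

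No gene of the 5 passed the test for posterior against anterior endoderm, a comparison in which only 12 of 10147 genes (0.118%) were called at all, and 1158 had an unadjusted p under 0.05. Afp came nearest. Its log2 level ran from 5.34 to 6.91 in EP of the 6 embryos, against 2.88 to 5.61 in EA. Those ranges overlapped, but within each embryo EP was above EA, by 1.37 ± 0.33 (SE, limma adjusted p = 0.226). Rbp4 (1.05 ± 0.30, adjusted p = 0.269) and Trf (0.76 ± 0.20, adjusted p = 0.227) were higher in EP in 5 of 6 embryos by limma, with E7.0 embryo 1 the exception in both.

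Ttr (0.37 ± 0.25) and Spink3 (-0.24 ± 0.16) had the smallest differences, each with limma adjusted p = 0.638. The 5 genes were also compared with each other, in 10 pairs that were set after the values had been seen. Spink3 had a smaller EP minus EA difference than Afp, Rbp4 and Trf in 6 of 6 embryos each, for example by 1.61 ± 0.45 (SD) against Afp, and Ttr a smaller one than Afp and Rbp4 in 6 of 6. The exact sign-flip permutation test gave p = 0.0312, the smallest that 6 embryos allow, and 0.0521 after adjustment over the 10 pairs. Of the genes listed as definitive endoderm markers 3 of 8 tested were called lower in EP than in EA. This list does not single out that cell type, as it summed to 135 and 147 FPKM in the E5.5 tips. The part of these markers in the values of the 5 genes was not tested.

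Within the endoderm all 5 genes were higher toward the proximal end, where the embryo proper meets the extraembryonic region. The slope is that of a straight line fitted to log2(FPKM + 1) over all sections of an embryo, with section scaled from 0 (most distal) to 1 (most proximal). It is not the difference between the end sections, and in EA of E7.0 embryo 1 Spink3 had log2 11.85 in section 2, 15.37 in section 9 and 11.71 in section 11, with a fitted slope of 2.21. In EP it was 7.00 ± 0.60 (SE) for Rbp4, 6.35 ± 0.55 for Ttr, 3.56 ± 0.51 for Afp, 3.43 ± 0.50 for Trf and 2.01 ± 0.49 for Spink3. The limma adjusted p ran from 1.3e-05 to 0.0227, and 7.03% of all genes were called higher. In EA it was 7.03 ± 0.85 for Rbp4, 7.36 ± 0.84 for Ttr, 3.41 ± 0.51 for Afp, 3.88 ± 0.59 for Trf and 2.55 ± 0.49 for Spink3. The limma adjusted p ran from 0.00721 to 0.0248 there, and 3.65% of all genes were called higher. Every slope was positive in 6 of 6 embryos. These are means over stages. In EA at E6.5, E7.0 and E7.5 the mean slope was 4.05, 7.71 and 10.33 for Ttr and 3.93, 7.88 and 9.28 for Rbp4. It was 2.56, 3.18 and 4.49 for Afp, 5.04, 3.30 and 3.30 for Trf and 2.54, 2.37 and 2.74 for Spink3. The change of slope with stage was not tested. The Spink3 slope in EP was 0.86 after scaling to equal medians (limma adjusted p = 0.283), was called without E7.0 embryo 2 and lost its call without any other single embryo. With no filter on low values 0 of the 5 were called on either side. In EA, leaving out E7.0 embryo 1, E7.0 embryo 2, E7.5 embryo 5 or E7.5 embryo 6 left 0 calls among these genes and among all genes, with Ttr still at 7.57, 7.15, 7.48 and 7.25 (limma adjusted p 0.163 to 0.36).

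Ttr and Rbp4 had steeper courses than the other 3 when both endoderm sides were averaged. Over the mean of both endoderm sides, the Ttr slope exceeded that of Spink3 by 4.58 ± 2.42 (SD), that of Afp by 3.37 ± 1.54 and that of Trf by 3.21 ± 2.19, in 6 of 6 embryos each (exact sign-flip permutation p = 0.0312, the smallest possible, and 0.0446 after adjustment over the 10 pairs). Rbp4 exceeded the same 3 genes in 6 of 6 embryos with the same p. Between Ttr and Rbp4 the difference was -0.16 ± 1.04, with 3 embryos on each side. In EA alone at E6.5 the order did not hold. Mean slopes there were 5.04 for Trf, 4.05 for Ttr, 3.93 for Rbp4, 2.56 for Afp and 2.54 for Spink3. In EA of E6.5 embryo 5 Ttr had 1.52 and Rbp4 2.20, against 3.89 for Trf, 2.36 for Afp and 1.41 for Spink3. On this log scale, with 1 FPKM added, the slope of Trf is understated where its distal values are near 0.

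**Figure D3:**
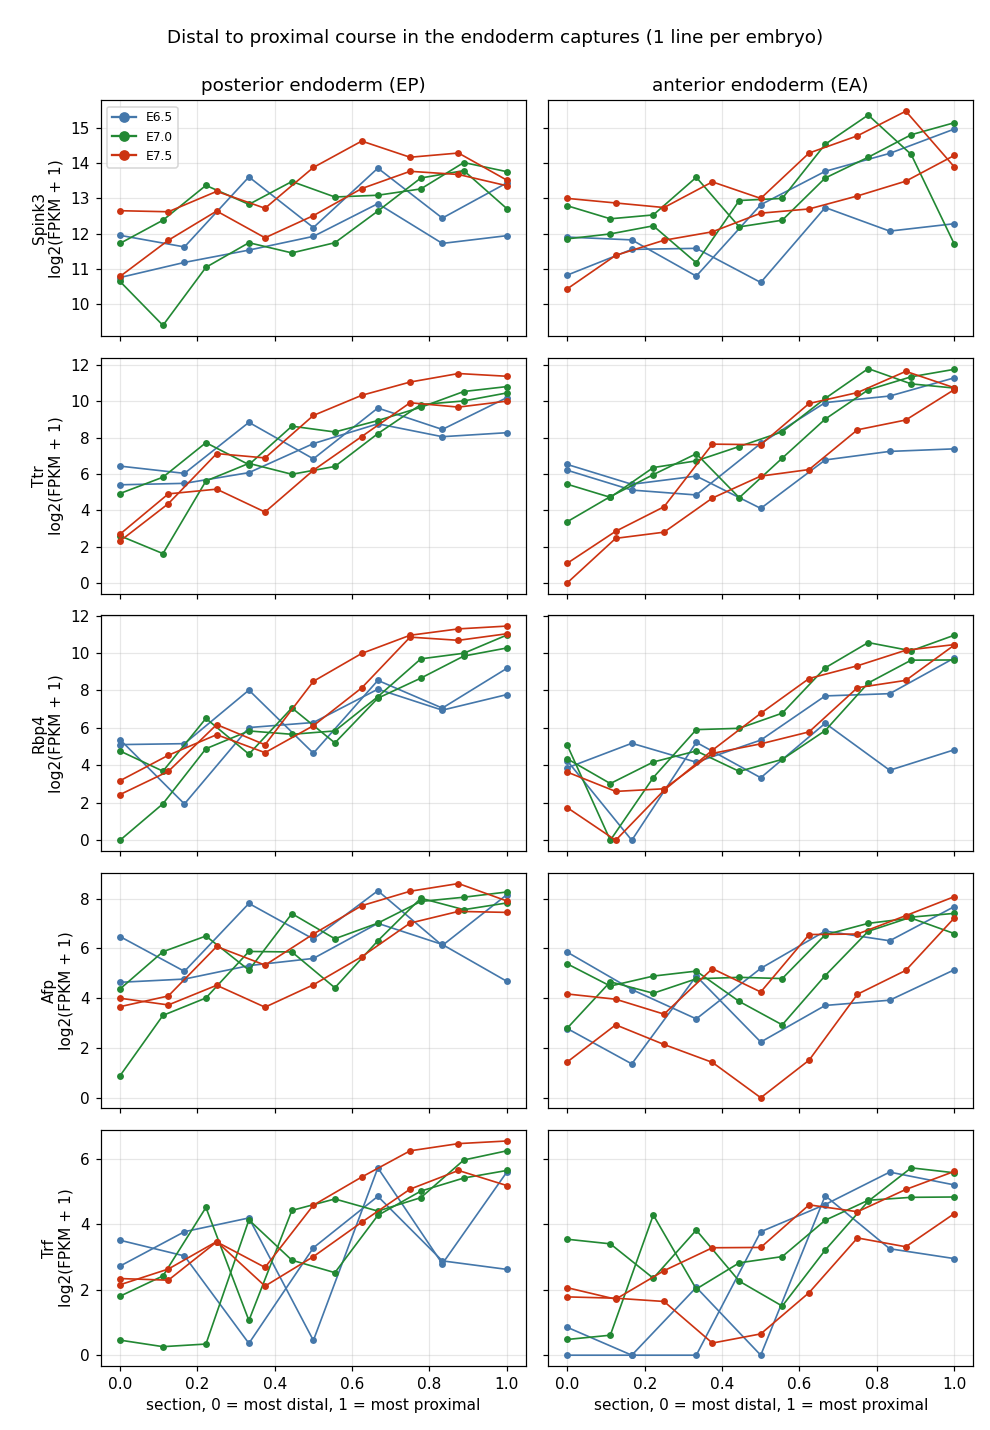
log2(FPKM + 1) of the 5 genes by relative section (0 most distal, 1 most proximal) in posterior (left) and anterior (right) endoderm, 1 line per embryo, coloured by stage. At E7.5 Ttr starts at 0 to 5.4 FPKM in section 2, while Spink3 is never under 670 FPKM in any EP or EA library.

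Some EA captures labelled from a more distal section found no column. In section 2, the most distal EA section with values here, those of Ttr had a stage order and those of Spink3 overlapped. Ttr had 90.5 and 72.3 FPKM there at E6.5, 42.1 and 9.33 at E7.0, and 1.11 at E7.5 with the other E7.5 embryo listed at 0. Spink3 in those same libraries had 1807 and 3814 FPKM at E6.5, 3703 and 7077 at E7.0, then 1382 and 8216 at E7.5. So at E7.5 anterior distal endoderm held at least 1382 FPKM of Spink3 with Ttr at the level of a few reads. In the matching EP section Ttr had 41.1 and 85.5 FPKM at E6.5, 5.03 and 29.2 at E7.0, then 5.4 and 3.91 at E7.5. The E7.5 library with 5.4 is one of those led by 1 small RNA gene, which held 88.9% of its FPKM sum. Over the 3 most distal EP sections mean Ttr overlapped between stages, with 50.3 and 202 FPKM at E6.5, 18.3 and 98.3 at E7.0, then 23 and 53.9 at E7.5. Over the 3 most distal EA sections mean Ttr was 63.6 and 44.5 FPKM at E6.5 and 49.3 and 32.1 at E7.0, which overlapped. At E7.5 it was 3.47 and 8.19 there, below both.

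Over the 3 most distal EA sections the ratio of mean Spink3 to mean Ttr FPKM was 41.3 and 69 at E6.5, 84.7 and 191 at E7.0, then 733 and 917 at E7.5. Over the 3 most proximal EA sections it was 37.9 and 13.9, 8.97 and 10.9, and 16.1 and 14. In EP the distal ratio was 46.4 and 32.3 at E6.5, 79.8 and 65.5 at E7.0, then 170 and 137 at E7.5, and the proximal ratio was 14.7 and 13.6, 9.9 and 9.88, and 13.4 and 6.5. The distal ratios of the 3 stages did not overlap on either side. The proximal ratios had no such order. With 2 embryos a stage the change of ratio with stage was not tested.

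**Figure D4:**
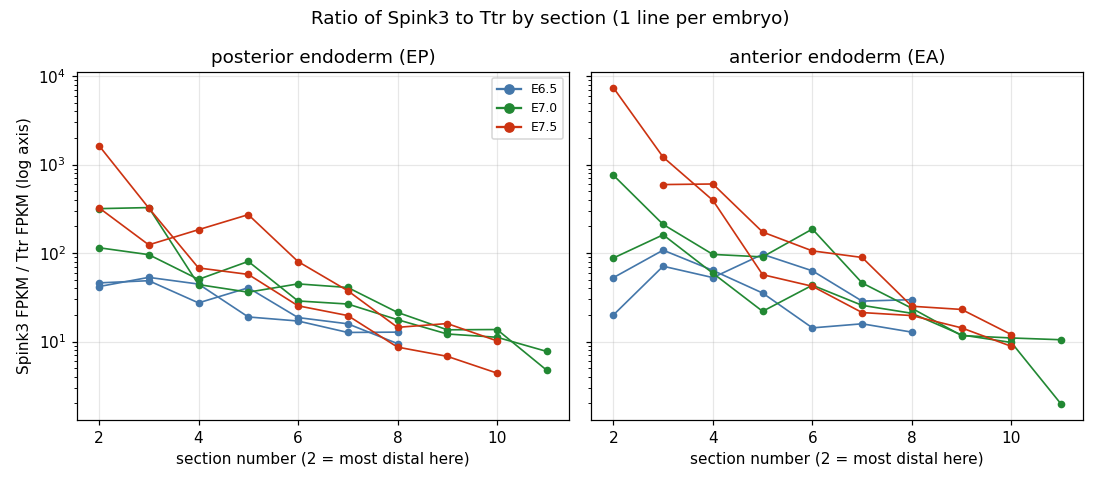
Ratio of Spink3 FPKM to Ttr FPKM (log axis) by section number in posterior (left) and anterior (right) endoderm, 1 line per embryo, coloured by stage; the library with Ttr listed at 0 has no point. The lines part at low section numbers, where EA of E7.5 embryo 6 has 7397 in section 2, 1215 in section 3 and 395 in section 4, and lie close together at high ones.

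Other markers in the same distal sections are given beside this. The list of definitive endoderm markers (10 genes, among them Cer1, Sox17 and Foxa2) does not single out that cell type. It had a median sum of 104 FPKM in A at E6.5. In the 3 distal EA sections it summed to 51.1 and 42.2 FPKM at E6.5, 425 and 1109 at E7.0, then 623 and 469 at E7.5. The 30 visceral endoderm markers summed there to 635 and 658, 1372 and 1778, and 1184 and 1282 FPKM. Markers of maternal blood and decidua, haemoglobin genes among them, summed to 188 and 128 FPKM at E6.5, 20241 and 2088 at E7.0, then 13603 and 3190 at E7.5. Parietal endoderm markers summed to 90.6 and 233, 757 and 577, and 501 and 562 FPKM. All 4 marker sums were higher at E7.0 and E7.5 than at E6.5 in these sections, and their part in the values of the 5 genes was not tested. In bulk captures fewer cells of a type and less RNA per cell cannot be told apart.

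The slopes of the marker lists show the same axis. Of the visceral endoderm list 28 of 29 tested genes rose toward the proximal end in EP and 24 of 28 in EA, with median slopes of 3.76 and 3.46 against 0.45 and 0.29 over all genes. Of the definitive endoderm list 0 of 8 rose on either side and 1 fell in EP. Of the parietal endoderm list 5 of 12 fell in EP and 3 of 12 in EA, where 0.264% and 0.192% of all genes fell.

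Embryo 4 of E7.5 has endoderm libraries coded E1 and E2 and mesoderm libraries coded M1 and M2, which were described and not compared. Its endoderm had the same course. Ttr was at or under 8.23 FPKM in sections 2 to 7 of E1 and had 82.8, 142 and 741 FPKM in sections 8, 9 and 10. In E2 it had 46.3, 853 and 527 FPKM in those 3 sections, and 59.9 in section 5. The E1 library of section 8 is one of those led by 1 small RNA gene, which held 75.8% of its FPKM sum. Spink3 was never under 293 FPKM in E1 or 357 in E2. In M1 and M2 Ttr was listed at 0 in 6 of 9 libraries each, and Spink3 had medians of 26.5 and 22.6 FPKM.

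Before endoderm was captured apart, its products were abundant in the captures of the early embryo. At E5.5 the undivided tip (A/P, section 1) held 4070 and 4055 FPKM of Spink3, 442 and 499 of Ttr, 269 and 172 of Rbp4, 51.7 and 43.1 of Afp and 67.8 and 75.8 of Trf in the 2 embryos. These tips held more visceral endoderm marker RNA (4537 and 5434 FPKM summed) than any of the 20 A and P libraries of that stage, which had 99.7 to 2593. In those 20 libraries Spink3 ranged from listed at 0 to 1297 in P and from 39.7 to 1375 in A, with medians of 718 and 770 FPKM. Ttr had medians of 75.2 FPKM in P and 78.7 in A. At E6.5 the medians of Spink3 were 57.5 FPKM in P and 94 in A, under those of E5.5.

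At E6.0 the 4 VE libraries of embryo 2 had 4201, 4428, 5399 and 6034 FPKM of Spink3 in sections 1 to 4. Ttr had 116, 118, 86 and 140 FPKM there, Rbp4 73.7, 39.3, 80.7 and 134, Afp 42.8, 16.6, 19.9 and 39.4, and Trf 9.92, 10.6, 13.7 and 8.07. A and P of the same embryo lay below these for Spink3 and Ttr in every section, at 57.7 to 619 FPKM of Spink3 and 1.14 to 20.1 of Ttr. Its tip (A/P) had 1804 FPKM of Spink3 and 63 of Ttr. The 6 tips of E6.5 were unlike each other, with 12151, 82, 1347, 213, 258 and 76.2 FPKM of Spink3 in embryos 1 to 6. The tip of embryo 1 also had 87.7 FPKM of Ttr and 67.3 of Afp and the highest parietal endoderm marker sum of these tips, 3132 FPKM, so this undivided capture stood apart from the other 5.

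From E6.5 on the 5 genes were low in epiblast captures relative to endoderm, in the embryos that have EP and EA libraries. E6.5 embryos 1 to 4 have no endoderm to set them against. Their mean Spink3 was 351, 472, 115 and 102 FPKM in P and 327, 137, 113 and 264 in A. Single libraries reached 1766 in P and 1269 in A. In E6.5 embryos 5 and 6 the means were 29.1 and 96.8 in P and 26.6 and 216 in A. Set against the EP and EA mean of the same embryo and section, Spink3 at E6.5 had a median of 0.806% in P and 1.23% in A, with highest values of 4.04% and 3.58%. At E7.0 it had 0.0481% in P and 0.166% in A, and at E7.5 0.211% and 0.21%. Ttr had medians of 0.46% in P and 0.621% in A at E6.5, of 0.00687% and 0 at E7.0 and of 0.0325% and 0 at E7.5. Of the 18 P libraries of E7.5, 1 exceeded 10% for Spink3, at 12.6%, and 0 did for Ttr. Afp was listed at 0 in all 7 A libraries of E7.0 and in 32 of 37 at E7.5.

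The ratio of Rbp4 to Ttr varied widely among epiblast captures of E7.5. Rbp4 in A of E7.5 had a mean of 5.05 ± 3.93 FPKM (SD, n = 6 embryos), while Ttr there had 0.356 ± 0.765 and was listed at 0 in 31 of 37 libraries. In A of E7.5 embryos 1, 2, 3, 5 and 6 there were 2422, 106, 139, 22.8 and 0.438 FPKM of Rbp4 per FPKM of Ttr summed over sections, against 1.86 and 0.883 in EP and 0.825 and 0.48 in EA of embryos 5 and 6. The lateral captures of embryo 3 had 150 in L1, 54 in L2, 1.78 in L, 74.3 in R1, 2.31 in R2 and 6.67 in R. With Ttr near 0 in most of these captures the ratio rests on few reads of Ttr. Spink3 per Ttr in A of embryos 1 and 3 was also high, at 9572 and 1651. Spink3 there had medians of 0.633 and 1.56 FPKM and highest values of 320 and 520. Rbp4 had medians of 10.2, 7.06 and 3.41 FPKM in A of embryos 1, 2 and 3. It was listed at 0 in 2 of 9, 0 of 9 and 1 of 10 of those libraries. Rbp4 exceeded the endoderm value of its section in single libraries where that value was near 0, up to 463% in L at E7.0, and Trf did so up to 1.08e+03% in P at E7.0.

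**Figure D5:**
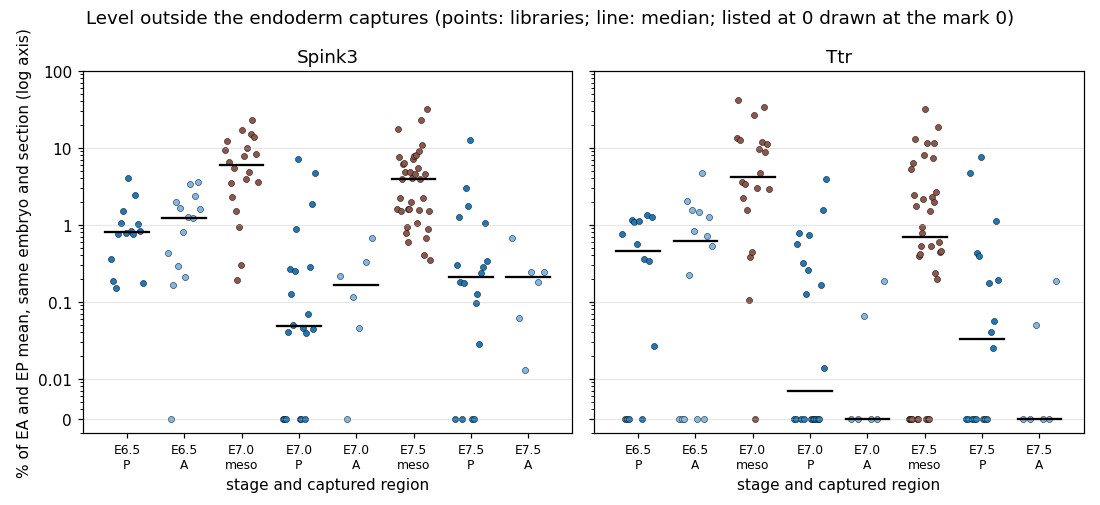
Spink3 (left) and Ttr (right) in mesoderm, P and A libraries as a percent of the EA and EP mean of the same embryo and section (log axis, values listed at 0 drawn at the mark 0, line at the median). Mesoderm lies highest, with a median of 6% for Spink3 and 4.15% for Ttr at E7.0, and most P and A libraries lie under 5%.

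Between the 2 sides of the epiblast 0 of the 5 genes passed the test at any of the 5 stages. Over all genes, calls in either direction made up 14.9% at E5.5, 0.00% at E6.0, 0.437% at E6.5, 2.30% at E7.0 and 12.9% at E7.5. At E6.0 Afp had a P minus A difference of -1.77 ± 0.36 (limma adjusted p = 0.139) and Ttr of -1.34 ± 0.44 (adjusted p = 0.265), both below 0 in 2 of 2 embryos. At E7.5 Spink3 had 1.57 ± 0.66 (limma adjusted p = 0.129), above 0 in 3 of 4 embryos. At E6.0 no gene at all was called by limma, with 1411 of 11438 at an unadjusted p under 0.05. At E6.0 embryo 1 the P library of section 5 is the one low in epiblast markers, and the P minus A difference of Spink3 was 0.17 without it and -1.06 with it. Without that library Ttr P minus A, E6.0 was -0.76, Afp P minus A, E6.0 was -1.33 and Rbp4 P minus A, E6.0 was 1.33, against 0.64 with it for Rbp4. At E7.5 Ttr was 1.63, 0.75, 0.61 and 1.79 on the log2 scale in P of embryos 3 to 6, against 0.04, 0.00, 0.14 and 0.92 in A. P lay above A in 4 of 4, by 0.92 ± 0.31 (SE, limma adjusted p = 0.0595). Leaving out the E6.0 library just named, which enters the shared spread, gave Ttr P minus A, E7.5 a limma adjusted p of 0.0356.

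Along the distal to proximal axis of the epiblast at E6.5 0 of 4 tested genes passed in P and 0 of 3 in A. The others, Trf in both and Afp in A, were under the mean of 1 FPKM that testing required. Of all genes 21.1% were called in P and 0.0105% in A. Ttr had slopes of 0.99 ± 0.89 in P and 1.54 ± 0.84 in A (SE, n = 6 embryos).

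The M, MA and MP captures held less of all 5 products than endoderm, and on the log2 scale more Spink3 and Ttr than P. The M1 and M2 captures of E7.5 embryo 4, which were not in the test, had less Spink3 than P. Spink3 there had means of 65.8 FPKM in M1 and 34.2 in M2, against 109 in P, and Ttr had means of 0.49 and 2.33, against 1.72 in P. By mean FPKM the mesoderm of E7.5 embryo 5 also lay below P of the same sections. It had 262 against 280 FPKM of Spink3 and 8.86 against 11.9 of Ttr. In the other tested embryos mean FPKM of both genes was higher in mesoderm than in P. The mesoderm lies between both layers in the section. All 5 genes were lower in mesoderm than in endoderm of the same embryo and section in 4 of 4 embryos, by log2 -4.68 ± 0.62 for Spink3, -4.45 ± 0.57 for Ttr, -4.12 ± 0.62 for Rbp4, -3.97 ± 0.54 for Afp and -2.70 ± 0.34 for Trf (SE, limma adjusted p = 0.00271 each). Of all genes 14.4% were called lower. Mean FPKM of Spink3 in mesoderm of E7.0 embryos 1 and 2 and E7.5 embryos 5 and 6 was 175, 1127, 262 and 1116, against 8669, 11616, 7379 and 15048 in endoderm. That is 2.02%, 9.7%, 3.55% and 7.41% of the endoderm level. Ttr had 0.864%, 9.06%, 2.73% and 4.33%.

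Against P, Spink3 and Ttr were called higher in mesoderm and the other 3 were not. Spink3 had log2 means of 7.08, 9.84, 7.43 and 8.68 in mesoderm of the 4 embryos, against 3.31, 3.35, 4.83 and 3.86 in P. The groups did not overlap, and the difference was 4.42 ± 1.04 (SE, limma adjusted p = 0.0141), the largest of all 9828 genes tested. Ttr had 2.62, 4.51, 1.53 and 2.85 in mesoderm, against 0.99, 1.22, 1.27 and 1.05 in P, a difference of 1.74 ± 0.39 (adjusted p = 0.0132 by limma) in 4 of 4 embryos. Rbp4 (1.00 ± 0.37, adjusted p = 0.057), Afp (0.87 ± 0.34, adjusted p = 0.0653) and Trf (0.20 ± 0.21, adjusted p = 0.442) did not pass by limma, and 3.64% of all genes were called higher. Without E7.5 embryo 5 there were 0 calls, with Spink3 mesoderm minus P, mean of stages, at 4.97 and Ttr mesoderm minus P, mean of stages, at 2.13 (limma adjusted p = 0.0787 for both), and without E7.0 embryo 1 all 5 were called. With a pseudocount of 0.1 or with no filter on low values 0 of the 5 were called.

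Other lists moved with them. Of the visceral endoderm list 10 of 21 tested genes were higher in mesoderm than in P and 2 lower, and of the definitive endoderm list 5 of 6 were higher. Of the parietal endoderm list 6 of 11 were higher and 3 lower, and of the maternal blood and decidua list 4 of 6 were higher and 1 lower. Of the mesoderm list 6 of 12 were higher and 2 lower, where 44.7% of all genes were called lower. The part of endoderm or blood cells in these values was not tested.

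The mesoderm of E7.0 embryo 2 and the MA capture of E7.5 embryo 6 stood out. In sections 8 to 11 of E7.0 embryo 2, M had 172, 107, 232 and 77.5 FPKM of Ttr, while no M section of E7.0 embryo 1 exceeded 11.3. In E7.5 embryo 6 the MA library of section 9 had 567 FPKM of Ttr and 10477 of Spink3, against at most 47.5 and 2696 in the other 8 MA libraries of that embryo. The ratio of Spink3 to Ttr over sections was 31 in M of E7.0 embryo 1 and 17.5 in M of embryo 2, against 13.1 to 16.8 in EP and EA of both.

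In A of embryos without separate endoderm captures 0 of the 5 genes passed the test against A of embryos with them, where 14.5% of all genes were called in either direction. Differences on libraries rescaled to a common sum were 0.59 ± 0.35 for Rbp4, 0.32 ± 0.33 for Ttr, 0.26 ± 0.28 for Trf, 0.04 ± 0.26 for Afp and -0.38 ± 0.92 for Spink3 (SE, n = 12 embryos, limma adjusted p from 0.258 to 0.923). The 2 kinds of embryo also differ in depth.

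The genes most like each of the 5 over the 473 libraries were found by Pearson correlation of log2(FPKM + 1) among 9796 genes. The 5 themselves were left out of this ranking. Ttr was most like the apolipoprotein genes Apoa1 (0.938), Apom (0.935) and Apoa4 (0.927). Afp was most like Apob (0.943), Amn (0.925), a partner of the uptake receptor cubilin, and the protease gene Ctsh (0.912). Rbp4 was most like Apoa4 (0.874), Cubn (0.863), which encodes cubilin, and Apoa1 (0.854), and Trf like Apoa4 (0.860), Cubn (0.855) and Apob (0.851). Spink3 was most like the X-linked homeobox gene Rhox5 (0.896), then Apom (0.849) and Ctsh (0.840). Among the 5 genes the highest value was between Afp and Ttr (0.907) and the lowest between Spink3 and Trf (0.686). Ttr was nearer to Rbp4 (0.870) than Cubn and Apoa1 were, and nearer to Spink3 (0.845) than Ctsh was. These libraries share embryos and depth, so the values describe likeness only.

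Other genes of the layer gave the setting of the endoderm to epiblast difference. Of 30 visceral endoderm genes 25 of 27 tested were higher in endoderm and 0 lower, with a median of 3.19 against -0.47 over all genes, led by Apoa1 (6.97), Apom (6.46), Rhox5 (5.96) and Apoc2 (5.16). All 8 tested of 12 endoderm and liver-type transcription factors were higher, led by Sox17 (2.75), Gata4 (2.55), Gata6 (2.34) and Foxa2 (2.60). Of 12 parietal endoderm genes 11 were higher, led by the basement membrane collagens Col4a1 (3.87) and Col4a2 (3.65). Of the definitive endoderm list 7 of 8 were higher, led by Cer1 (3.32), a secreted Nodal antagonist. Sox17 and Foxa2 are in this list as well as in that of the transcription factors. All 10 epiblast genes were lower, where 59.6% of all genes were, among them Pou5f1 (-3.59) and Sox2 (-2.10). All 6 tested genes of the maternal blood and decidua list were higher, among them the haemoglobin genes Hba-a2 (4.83) and Hbb-b1 (4.46), each higher in 5 of 6 embryos. Their part in the values of the 5 genes was not tested. Of the mesoderm list 4 of 11 were higher and 3 lower, with Hand1 at 1.54.

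Genes that take up or use the cargo of these proteins were counted as well. Of 23 genes of retinol, thyroid hormone and iron handling 16 were tested, 6 were higher in endoderm and 8 lower, with a median of -0.28 against -0.47 over all genes, of which 10.9% were called higher and 59.6% lower. Cyp26a1, which breaks down retinoic acid, was higher by 2.63 ± 0.25 (SE, limma adjusted p = 7.41e-10). The iron exporter gene Slc40a1 was higher by 1.73 ± 0.21 (limma adjusted p = 3.58e-08). The retinoic acid binding protein gene Crabp2 was lower by -2.84 ± 0.25 (limma adjusted p = 1.34e-10), and Tfrc, the transferrin receptor, by -1.08 ± 0.16 (limma adjusted p = 8.2e-07), both in 6 of 6 embryos. Stra6, the Rbp4 receptor, chosen here after its value was seen, was higher in endoderm by 1.11 ± 0.20 (limma adjusted p = 2.38e-05), in 5 of 6 embryos.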

How the data were processed

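Deposited values are FPKM (fragments per kilobase of transcript per 1000000 mapped), made by the authors with TopHat2 2.0.8b and Cufflinks 2.1.1 on mm10 per the submitters' processing notes; annotation and options are not given in the sources used here. Sections were cryocut and laser captured, per the labels' protocols. By embryo, section and region, 473 of the 586 samples found their column; 111 columns and 113 samples were left out, among them most L and R captures of E7.5. E6.5 embryo 6 is held in a table whose name gives E6.0, and the labels were followed.

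No count test was run. Differences of log2(FPKM + 1) between regions were taken within embryo and section, averaged per embryo and fitted with stage means (limma 3.58.1 in R 4.3.3, with a trend and robust variances), for genes whose mean reached 1 FPKM in any stage compared, with Benjamini-Hochberg adjustment at 0.05 over all genes. The embryo is the replicate, and pairing comes from the shared embryo: deviations of A and P correlated across genes by 0.633 to 0.875 within E6.5 embryos, against at most 0.55 between them. For E7.5 embryos the values were 0.353 to 0.743 within and at most 0.027 between. Gene lists were counted, not tested, and from each up to 4 genes with the smallest p in endoderm minus epiblast were named. The 3 genes outside the 5 that were most like each of them were named too. The 5 genes and the lists were chosen with earlier results of these data known. Fits were tested on simulated data. Tables and figures used Python 3.11.15 and pandas 2.3.3. The depth estimate used 2875 genes with 1 annotated transcript over 1 kb in GENCODE vM21. Standard errors are given, and confidence intervals were not computed. Alternatives were the pseudocount, the filter, the scaling, the block, and leaving out embryos or libraries.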

Additional observations from a re-analysis of the deposited data

Results flagged for a closer look

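Of 57 groups of 4 to 10 embryos, 3 held 1 embryo far from the rest, where chance alone flags about 1 in 20. The EP minus EA difference of Ttr was -1.54 on the log2 scale in E7.0 embryo 1, against 0.16 to 1.16 in the other 5 embryos. The level of Ttr in A at E7.5, on rescaled libraries, was 1.38 in embryo 6, against 0.00 to 0.32 in the other 5. The P minus A difference of Rbp4 at E7.5 was 1.87 in embryo 6, against -0.40 to -0.04 in the other 3.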

How the results depend on the processing

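All 5 genes kept their call in endoderm minus epiblast and in mesoderm minus endoderm under every alternative run. Within-embryo pairing (the replicate block) was part of the design, and without the block 5 of 5, 5 of 5 and 2 of 5 genes were called in endoderm minus epiblast, mesoderm minus endoderm and mesoderm minus P, with no other count of calls changed. Causes of the changes that follow were not tested. With a pseudocount of 0.1 the counts were 1 for the change of endoderm minus epiblast from E6.5 to E7.5, 0 for mesoderm minus P and 1 for P minus A at E7.5, with Ttr P minus A, E6.5 at 0.01 and Rbp4 A slope, E6.5 at -0.05. A filter at 5 FPKM gave 1 for the change, and no filter gave 0 for mesoderm minus P, the EA slope and the EP slope. With libraries at equal sum, Ttr, Rbp4 and Trf endoderm minus epiblast, change E7.5 minus E6.5, were -0.68, -0.01 and -0.44, Spink3 EP minus EA, E7.5 was -0.30, Ttr P minus A, E5.5 and Rbp4 P minus A, E5.5 were each -0.03, and 1 gene was called in P minus A, E7.5. With equal medians (4 libraries with a median of 0 left out) Ttr endoderm minus epiblast, change E7.5 minus E6.5, Rbp4 endoderm minus epiblast, change E7.5 minus E6.5, and Trf in the same were -1.51, -0.61 and -0.88, Spink3 EP minus EA, E7.5 was -0.03, Ttr and Rbp4 P minus A, E5.5 were -0.71 and -0.29, Rbp4 A slope, E6.5 was -0.06, and 3 genes had a called EA slope. Without libraries led by 1 gene Spink3 EP minus EA, E7.5 was -0.00. On FPKM as deposited 1 gene was called in the A level of embryos without minus embryos with endoderm libraries, and Spink3 was 0.47. Without the E6.0 P library low in epiblast markers, a setting chosen after seeing the data, Spink3 P minus A, E6.0 was 0.17 and 1 gene was called in P minus A, E7.5.

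Leaving out 1 embryo at a time gave 0 to 5 calls in mesoderm minus P and in the EA slope, 0 to 1 in P minus A at E5.5 and at E7.5 and in the A level, and 0 to 2 in P minus A at E6.0. The change E7.5 minus E6.5 of endoderm minus epiblast ran from -0.08 to 0.46 for Ttr, -1.20 to 0.45 for Afp and -0.27 to 1.00 for Trf. EP minus EA ran from -0.18 to 0.04 for Spink3 at E6.5 and -0.21 to 0.22 at E7.5, and at E7.0 from -1.54 to 0.64 for Ttr, -0.55 to 1.04 for Rbp4 and -0.08 to 0.43 for Trf. P minus A at E5.5 ran from -0.05 to 0.43 for Ttr, -0.17 to 0.03 for Afp, -0.45 to 0.73 for Rbp4 and -1.96 to 0.43 for Spink3. At E6.0 it ran from -2.64 to 0.52 for Spink3 and -0.23 to 0.32 for Trf, at E6.5 from -0.30 to 0.10 for Ttr and -0.22 to 0.04 for Rbp4, and at E7.5 from -0.19 to 0.57 for Rbp4. The Rbp4 A slope at E6.5 ran from -0.32 to 0.71, and the A level difference from -0.16 to 0.25 for Afp and -1.12 to 0.36 for Spink3. Of the values of single genes under all alternatives, 1071 kept direction and call, 48 lost a call, 19 gained one and 48 changed sign. In the median library a single read was worth 0.13 FPKM of Trf to 0.46 of Spink3, so levels near these values rest on few reads.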
